A study of Mus musculus with 4 samples.

Results

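Endothelial cells were sought among the cells sorted for tdTomato from mouse femoral marrow, and 227 of 9795 called cells (2.32%) met the rule that defines them here. A member was a called cell (a barcode taken as a cell) that carried at least 1 unique molecular identifier (UMI, the count of 1 captured RNA molecule) of at least 3 of 7 endothelial genes (*Pecam1*, *Cdh5*, *Emcn*, *Kdr*, *Cldn5*, *Tie1* and *Egfl7*), at least 2 UMIs of *Cdh5*, *Cldn5* and *Kdr* together, no UMI of the leukocyte gene *Ptprc* and at most 1 UMI of *Adipoq*, a gene of the reticular stroma. The endothelial members were thus selected on the UMI counts of these 9 genes, whose levels are given as a description and were not tested.

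Endothelial cells line every vessel. In marrow, most of them form sinusoids, wide thin-walled vessels with open junctions through which blood cells enter and leave the circulation, and a smaller number form arterioles that feed these sinusoids. Sinusoidal cells are known for scavenger receptors such as *Stab1* and *Stab2*, the diaphragm protein gene *Plvap* and the leukocyte adhesion genes *Vcam1* and *Selp*. Arteriolar cells are known for connexins such as *Gja4* and for *Ly6a*, and both kinds of vessel are disrupted and rebuilt when marrow is removed mechanically.

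All cells came from *Cxcl12-iCreER; R26R(tdTomato/+)* mice, in which a bacterial artificial chromosome with *Cxcl12* regulatory sequence drives a tamoxifen-dependent Cre recombinase that switches on tdTomato for good, and the controls carried the same alleles. Tamoxifen was given 7 days before the operation, the right femur was ablated by reaming its marrow space (ABL), the left femur of the same mice is stated to be the unoperated control (CONT), and both were taken 7 days later. Replicate 1 was made with Chromium version 2 and replicate 2 with version 3, each with 1 CONT and 1 ABL library. Replicate 1 was pooled from several mice, the number of mice in replicate 2 was not given in the sources used here, and replicate and chemistry cannot be told apart. The labels call the sorted cells mesenchymal, and no exclusion of endothelial cells is stated for this sort. The paper reports tdTomato+ cells without tamoxifen in some mice of this line, mostly with surface markers of blood or endothelial cells. It also reports *tdTomato* RNA in a few endothelial cells of the day 7 data. The ages of these mice were not given in the sources used here.

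CONT replicate 1 held 78 members of 3419 called cells, ABL replicate 1 held 10 of 1438, CONT replicate 2 held 23 of 2397 and ABL replicate 2 held 116 of 2541. The members' summed depth was 377024, 74851, 336649 and 1070136 UMIs in that order of libraries, and the median member had 3912.5, 6012.5, 11794 and 7699.5 UMIs. All 7 endothelial genes were present in 109 members. At the edge of the rule, 4 members carried exactly 3 of the 7 genes and 3 had exactly 2 UMIs of *Cdh5*, *Cldn5* and *Kdr*, while just outside it 2 cells had 1 such UMI and 1 cell carried 2 of the 7 genes. Another 16 cells passed the endothelial counts but had *Ptprc*, and 17 had 2 or more UMIs of *Adipoq*. No barcode was a member in more than 1 library, although 5 called barcodes were shared by the libraries of replicate 1 and 1 by those of replicate 2, the latter being a member in ABL replicate 2.

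Several libraries stood apart before any comparison. ABL replicate 1 has only 10 members, and they differ from each other. Of these, 2 were dominated by *Ccl21a* (353 and 290 UMIs), 1 carried 209 UMIs of *Rgs5*, 124 of *Acta2* and 65 of *Tagln*, genes of the contractile cells around vessels, and 1 had 3 of the 7 endothelial genes together with 139 UMIs of *Cd74*, 66 of *Plac8* and 16 of *Siglech*, genes of immune cells. CONT replicate 2 was low in ribosomal protein RNA, which made up 6.80% of the members' UMIs there against 16.8% in CONT replicate 1, 17.0% in ABL replicate 1 and 15.9% in ABL replicate 2. The stromal cells of CONT replicate 2 were low in it as well, at 6.98% against 12.7% to 15.8% in the other libraries. *Malat1*, a nuclear RNA whose share moves with RNA quality, was at 30842, 18089, 33851 and 19213 CPM (UMIs per 1000000) in members of CONT replicate 1, ABL replicate 1, CONT replicate 2 and ABL replicate 2, and at 30638, 22770, 39836 and 25191 CPM in stroma, so that both ABL libraries lay under both CONT libraries in both kinds of cell. Cells with *Xist* were unevenly spread over libraries and cell kinds. After each cell was thinned to 2000 UMIs, *Xist*, the RNA of the silenced X chromosome, was found in 12.8%, 60.0%, 8.70% and 0% of members (CONT replicate 1, ABL replicate 1, CONT replicate 2, ABL replicate 2), and in 40.1%, 64.4%, 62.2% and 0.325% of *Adipoq*+ stromal cells (*Adipoq* at least 2 UMIs, no *Ptprc*, at most 1 of the 7 endothelial genes). The unthinned shares were 15.4%, 70.0%, 8.70% and 0% of members. Members and stroma of CONT replicate 2 thus differed in *Xist*, and so did the stroma of CONT and ABL replicate 2, so that the libraries of replicate 2 did not hold the same mix of cells with and without it. This goes against a pairing of femurs of the same mice in replicate 2, on which the replicate block below partly rests. The libraries of replicate 1 differed in *Xist* as well, by less in stroma. Their stroma had 40.1% (exact binomial interval 37.2 to 43.0) in CONT and 64.4% (59.6 to 69.0) in ABL. Their members had 12.8% (6.32 to 22.3) in CONT and 60.0% (26.2 to 87.8) in ABL. An equal mix is thus not shown for replicate 1 either, and the pairing there was not tested. The part of these differences in the results below was not tested beyond the alternatives named there.

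**Figure D1:**
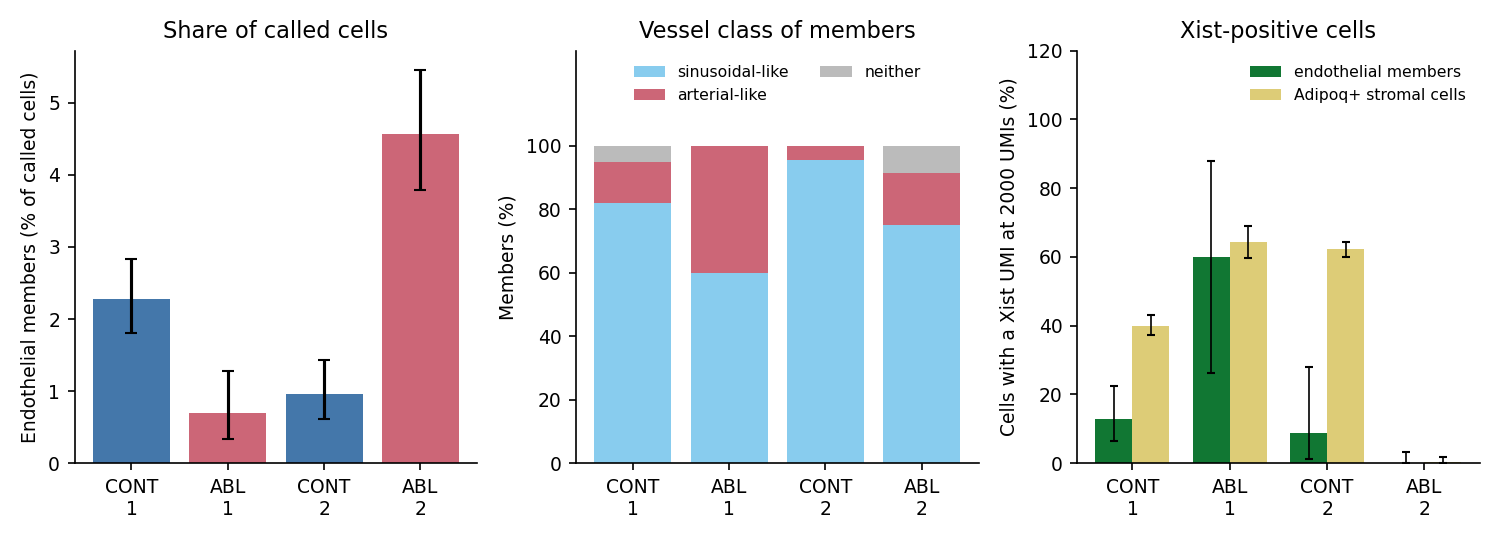
Endothelial members in each library. Left, members in % of called cells (bars) with exact 95% binomial intervals; middle, members in % by vessel class after thinning to 2000 UMIs; right, cells with a *Xist* UMI in % at 2000 UMIs, with exact 95% binomial intervals. The share of members runs from 0.695% in ABL replicate 1 to 4.57% in ABL replicate 2, and in CONT replicate 2 *Xist* is found in 8.70% of members and 62.2% of stromal cells.

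Members carried the genes that mark endothelium beyond those used to choose them. Levels here are in CPM, a gene's UMIs per 1000000 of all UMIs summed over the members of a library, and intervals are exact 95% Poisson intervals, which cover counting error only. *Plvap* was at 1029, 1029, 1355 and 1023 CPM in CONT replicate 1, ABL replicate 1, CONT replicate 2 and ABL replicate 2. In *Adipoq*+ stromal cells it was at 2.18, 0.570, 0.308 and 2.23 CPM, and in *Ptprc*+ cells at most 10.3 CPM. *Stab2* was at 605, 93.5, 945 and 374 CPM in members. In stroma it did not pass 2.34 CPM. Both defining genes outside the rule were therefore present in every library, *Plvap* at an even level and *Stab2* lowest in ABL replicate 1, where 7 UMIs came from 2 cells. At 2000 UMIs per cell, *Plvap* was seen in 79.5%, 60.0%, 73.9% and 74.1% of members and in 0.357%, 0.242%, 0.157% and 0.649% of stromal cells.

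The 30 genes with the largest ratio of members to the higher of the 2 reference classes, taken at the lowest of the 4 libraries and among genes of at least 50 CPM in the members of every library, included all 7 endothelial genes of the rule. The place of these 7 follows from the rule, and the stromal cells were held to at most 1 of them, so it is no finding. This list was ranked after the values were seen and is a description. Outside the rule, the list held *Flt1* and *Flt4*, receptors for vascular endothelial growth factors, *Tek*, the receptor for angiopoietins, and *Ptprb*, a phosphatase that opposes it. *Flt4* was at 300, 321, 642 and 361 CPM and *Flt1* at 414, 227, 1209 and 548 CPM. Also ranked were the junction gene *Esam* (419, 454, 342 and 418 CPM), *Gpihbp1*, which anchors lipoprotein lipase on capillaries (430, 267, 229 and 451 CPM), and the transcription factor gene *Sox18* (329, 120, 181 and 192 CPM). *Esam* was close in all 4 libraries, whereas *Flt1* was lowest in ABL replicate 1 and highest in CONT replicate 2.

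*Cldn5*, a gene of the rule that encodes the main claudin of endothelial junctions, was at 2377, 908, 1464 and 1321 CPM in members. The 250 bases upstream of its start are shown because it led that ranking; they are from RefSeq on GRCm38.p6, plus strand, chr16:18776597-18776846, and the gene itself spans chr16:18776847-18778262 in GENCODE M21. No letter is in capitals, because the motif AGGAAG (or CTTCCT on the other strand), the core that factors of the ETS family bind, is not in this window.
Cldn5: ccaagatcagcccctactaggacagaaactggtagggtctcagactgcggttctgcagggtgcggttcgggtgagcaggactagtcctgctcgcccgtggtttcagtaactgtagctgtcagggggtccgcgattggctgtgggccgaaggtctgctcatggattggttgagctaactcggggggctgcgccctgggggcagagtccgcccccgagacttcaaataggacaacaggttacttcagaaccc
Of all 32851 upstream windows of this length in the table, 29.5% hold that motif, and 4 of 7 windows found for the 11 endothelial genes looked up hold it. The motif AGATAA (or TTATCT), read by GATA factors, was in 0 of these 7 windows and in 9.99% of all. These matches describe letters only.

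**Figure D2:**
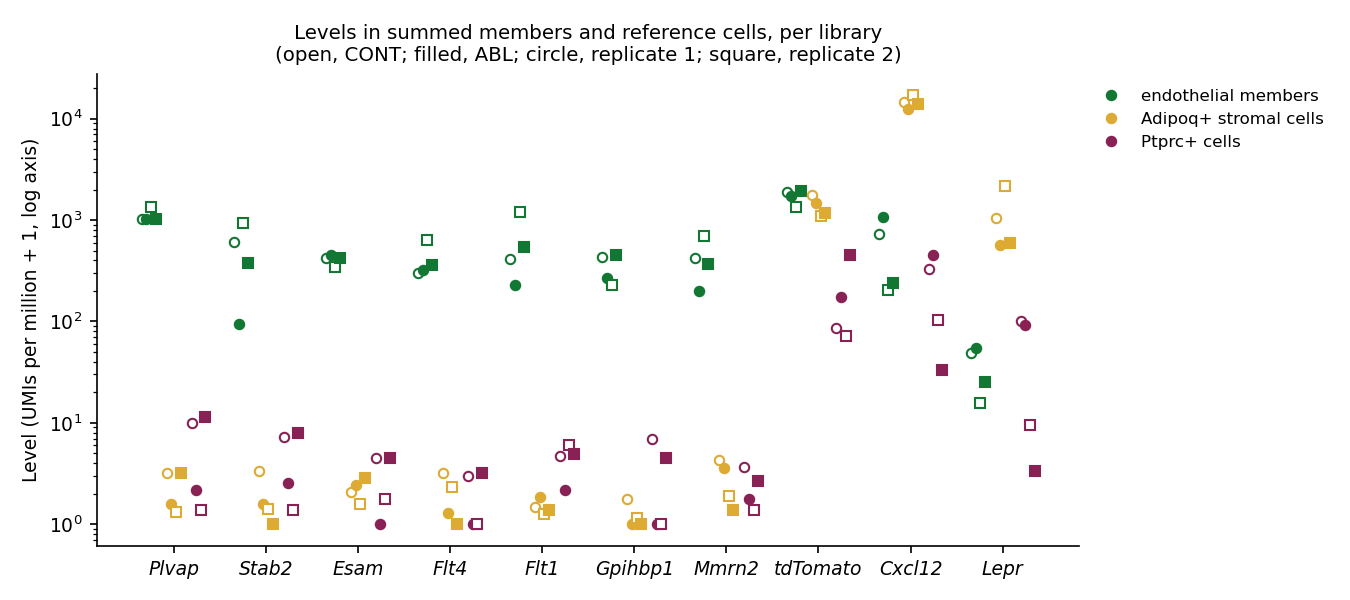
Levels of 10 genes in summed endothelial members, *Adipoq*+ stromal cells and *Ptprc*+ cells. The y axis gives CPM + 1 on a log axis; each point is 1 library (open, CONT; filled, ABL; circle, replicate 1; square, replicate 2). Endothelial genes such as *Plvap* and *Esam* sit at 342 CPM or more in members and at 10.3 CPM or less elsewhere, *tdTomato* is at least as high in members as in stroma of the same library, and *Cxcl12* is highest in stroma.

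The members carried the reporter that the sort selected for. *tdTomato* was at 1894 (95% interval 1757 to 2038), 1737 (1451 to 2062), 1337 (1216 to 1466) and 1958 (1875 to 2043) CPM in members. In *Adipoq*+ stromal cells it was at 1761, 1477, 1103 and 1186 CPM. Its level in members was above that of stroma in each library by point estimate, and the members' interval includes the stromal level in both libraries of replicate 1 and lies above it in both of replicate 2. *Ptprc*+ cells had 85.4, 175, 70.2 and 456 CPM, and droplets of at most 300 UMIs, which hold free RNA, had 447, 536, 923 and 886 CPM. At 2000 UMIs per cell, 87.2%, 80.0%, 78.3% and 83.6% of members had a *tdTomato* UMI, against 90.5%, 88.4%, 80.4% and 82.8% of stromal cells and 13.3%, 20.7%, 7.65% and 41.2% of *Ptprc*+ cells. *Cxcl12*, the chemokine whose regulatory sequence drives the Cre, was at 732, 1069, 202 and 241 CPM in members. The same gene was at 14623, 12608, 17144 and 13992 CPM in stroma, and at 5311, 5467, 11010 and 1946 CPM in free RNA. Members therefore had the reporter at or above the stromal level, and *Cxcl12* far below the stromal level, in every library. Within the members, *Cxcl12* in replicate 1 was at 1066 and 1343 CPM in arterial-like cells (10 CONT and 4 ABL cells, classes defined below) and at 652 and 807 CPM in sinusoidal-like ones with under 10 UMIs of *Ccl21a*, but 46.7% and 48.4% of the arterial-like UMIs lay in 1 cell each. In ABL replicate 2 it was at 566 against 106 CPM, with 26.5% and 50.7% in 1 cell. *Lepr* and *Adipoq*, further genes of the reticular stroma, were at 53.4 CPM or less in members of every library, *Adipoq* being held low by the rule.

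The share of called cells that were members did not follow the operation. It was 2.28% (exact 95% binomial interval 1.81 to 2.84) in CONT replicate 1 and 0.695% (0.334 to 1.28) in ABL replicate 1. In replicate 2 the order was opposite, with 0.960% (0.609 to 1.44) in CONT and 4.57% (3.79 to 5.45) in ABL. With 2 libraries per condition, an exact permutation test cannot give a two-sided p under 0.33, so the share was not tested. The gate on tdTomato and the composition of the other sorted cells can also set this share.

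Members were placed on a range between sinusoidal and arterial cells by the summed UMIs of 10 sinusoidal genes (*Stab2*, *Stab1*, *Plvap*, *Flt4*, *Vcam1*, *Dnase1l3*, *Ackr1*, *Selp*, *Maf* and *Gpm6a*) and 12 arterial genes (among them *Sox17*, *Gja4*, *Stmn2*, *Ly6a* and *Igfbp3*), each cell thinned to 2000 UMIs. A member was sinusoidal-like or arterial-like if the larger sum reached 2 UMIs, and neither if both sums were under 2 or they were equal. In CONT replicate 1, 64 of 78 members were sinusoidal-like (82.1%, 71.7 to 89.8), 10 arterial-like and 4 neither. In ABL replicate 1, 6 of 10 were sinusoidal-like (60.0%, 26.2 to 87.8) and 4 arterial-like. In CONT replicate 2, 22 of 23 were sinusoidal-like (95.7%, 78.1 to 99.9) and 1 arterial-like. In ABL replicate 2, 87 of 116 were sinusoidal-like (75.0%, 66.1 to 82.6), 19 arterial-like and 10 neither. The sinusoidal-like class was the largest in each library, with a lower point estimate in ABL than in CONT of both replicates and intervals that overlapped in each. That class includes, in ABL replicate 1, the 2 cells dominated by *Ccl21a*, which had no UMI of *Stab2* or *Plvap*, and without them 4 cells were sinusoidal-like and 4 arterial-like. Of the 10 Ccl21a-high members described below, 7 were counted as sinusoidal-like. The classes are ranges, not types: in 32 of the 227 members the sums were within 1 UMI of each other or the larger was exactly 2. The median sinusoidal sum was 10.5, 5.5, 16 and 6 UMIs of 2000, and the median arterial sum was 1, 2.5, 0 and 1.

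**Figure D3:**
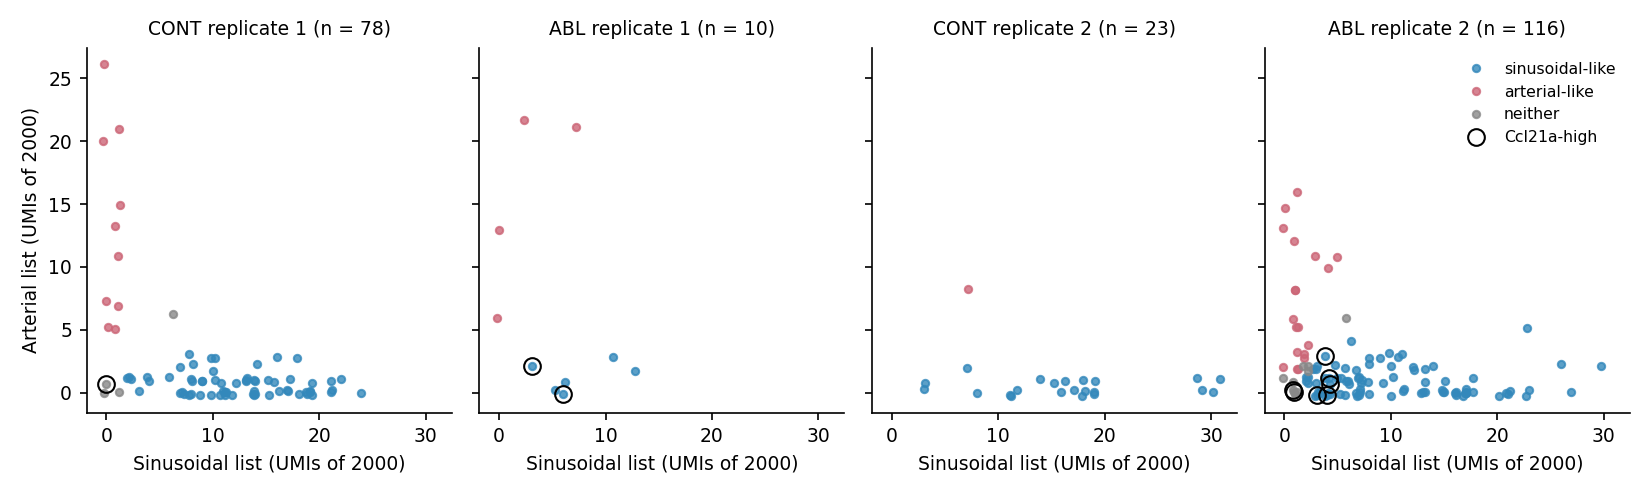
Each point is 1 endothelial member thinned to 2000 UMIs: the x axis gives UMIs of the 10 sinusoidal genes and the y axis UMIs of the 12 arterial genes, with a small random offset so that equal cells can be told apart. Colours give the class and rings mark Ccl21a-high cells; in CONT replicate 1 the arterial-like cells stand clear of the sinusoidal-like ones, while in ABL replicate 2 many cells lie near the origin.

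Arterial-like members differed in how many genes of arterioles they carried. In the 10 such cells of CONT replicate 1, *Gja4* was at 657 CPM (37 UMIs in 8 cells) and *Ly6a* at 2504 CPM, in all 10 cells. The 4 of ABL replicate 1 had 802 CPM of *Gja4* (37 UMIs in 3 cells). Of these 4, 1 was the cell with *Cd74*, *Plac8* and *Siglech*, placed in the class by 44 UMIs of *Ly6a* with none of *Gja4*, and 1 was the cell with *Rgs5* and *Acta2*, so the name of the class goes against the leading genes of both. The 19 of ABL replicate 2 had 232 CPM of *Gja4* (48 UMIs in 7 cells) and 1006 CPM of *Ly6a* (in 16 cells). The single such cell of CONT replicate 2 had no UMI of *Gja4*, *Stmn2* or *Ly6a*, and rested on *Igfbp3* (13 UMIs) and *Efnb2* (3 UMIs). These genes formed the arterial sum, so their presence is a description.

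A small set of members carried lymphatic genes. Ccl21a-high members, taken after the values were seen as those with at least 10 UMIs of *Ccl21a*, a chemokine of lymphatic vessels that draws in dendritic cells and T cells, numbered 1, 2, 0 and 7 in CONT replicate 1, ABL replicate 1, CONT replicate 2 and ABL replicate 2. The files hold several near-identical *Ccl21* features that could share reads, so the level of this one is uncertain. The 7 cells of ABL replicate 2 held 1809 of the 1810 *Ccl21a* UMIs of that library's members. Together they had 67 UMIs of the hyaluronan receptor gene *Lyve1* in 6 cells, 93 of *Mmrn1* in all 7, 28 of *Prox1*, a transcription factor that sets lymphatic identity, in 6, and no *Stab2*. In ABL replicate 1, the 2 such cells had 18 UMIs of *Lyve1* and 37 of *Mmrn1*. *Lyve1* was at 0 in the members of both CONT libraries, and outside the Ccl21a-high cells it was found in 1 sinusoidal-like member, of ABL replicate 2 (5 UMIs). *Prox1* was not limited to these cells: members had 12, 3, 33 and 69 UMIs of it in all, and CONT replicate 2, with 33, had no Ccl21a-high cell. *Mmrn1* was not limited to them either, at 181 and 248 CPM in the remaining sinusoidal-like members of the CONT libraries.

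Genes of other cell types were present in the members' sums to different degrees. Of 12 osteoblast and fibroblast genes, members had UMIs of 10, 9, 3 and 12 in CONT replicate 1, ABL replicate 1, CONT replicate 2 and ABL replicate 2, with summed levels of 10469, 1563, 92.1 and 5294 CPM. The most abundant were *Bglap* (4334 CPM) in CONT replicate 1, of which 99.7% lay in 1 cell, *Col1a1* in ABL replicate 1 (588 CPM), *Ibsp* in CONT replicate 2 (59.4 CPM) and *Col1a1* in ABL replicate 2 (1664 CPM). The *Ptprc*+ cells of ABL replicate 2 had *Col1a1* at 2615 CPM. Of 12 blood genes the members had 11, 11, 8 and 8, summing to 42493, 10501, 1277 and 7301 CPM, with *Hbb-bs*, a haemoglobin gene, the highest in each library and *Ptprc* at 0 by the rule. Of 9 genes of mural cells, members had 7, 8, 4 and 8, summing to 801, 6079, 1512 and 638 CPM. In ABL replicate 1 the top mural gene was *Rgs5* (2792 CPM, all in 1 cell), and elsewhere it was *Abcc9*, a subunit of potassium channels, at 443, 1254 and 403 CPM. *Acta2* was at 15.9, 0 and 13.1 CPM in those 3 libraries. Of 7 megakaryocyte genes the members had 3, 2, 2 and 3, summing to 31.8, 347, 17.8 and 29.9 CPM, with *Pf4* at 334 CPM in ABL replicate 1, in 1 of its Ccl21a-high cells. The 2 Ccl21a-high cells of that library also held 149 UMIs of *Apoe* and 57 of *Lyz2*, a lysozyme gene of myeloid cells, 99.3% and 98.2% of them in 1 cell, and *Pf4* and *Apoe* were at 453 and 3188 CPM in its *Ptprc*+ cells. Of 12 reticular genes all were found in every library, at summed levels of 4101, 4970, 2549 and 1348 CPM against 28072 to 38135 CPM in stroma, with *Apoe* the highest.

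ABL and CONT members were compared over all genes on UMIs summed per library, with the replicate as a block (edgeR's quasi-likelihood test, Benjamini-Hochberg adjustment over 5098 genes, the genes of the rule left out of the counts). The study calls the replicates biological, and with 2 of them the fit leaves 1 residual degree of freedom. The p-values therefore rest mostly on a spread pooled across genes. They say little about how far the 2 replicates of a single gene differ. In this fit 148 genes (2.90% of those tested) passed an adjusted p of 0.05, 93 higher (1.82%) and 55 lower (1.08%) in ABL, and 143 of them had the same direction in both replicates. Sinusoidal genes and leukocyte adhesion genes were among those that fell, and arterial, lymphatic and matrix genes among those that rose. These counts were not stable. They depended on the block, without which 3 genes were higher and 0 lower (84 and 53 at an unadjusted p under 0.05). DESeq2, with the block, called 11 and 2. Without the Ccl21a-high members, those with at least 10 UMIs of *Acta2*, *Tagln* and *Rgs5*, and those at 3 of the 7 endothelial genes (an alternative chosen after seeing the data, which leaves 6 cells in ABL replicate 1), edgeR called 0 in either direction, with 147 genes higher and 212 lower at an unadjusted p under 0.05. No single cell held over 50% of the UMIs, in either library of the group where the gene was high, for 84 of the 148, 41 of them higher and 43 lower in ABL. Per-library values are therefore given for the genes below, with the cells behind them where few cells held most of the UMIs, and a called gene is one that passed the fit with the block. Statements that the CONT and ABL libraries did or did not overlap in a gene are descriptions. With 2 against 2 libraries, an exact permutation test gives a two-sided p of at least 0.33. The share of all tested genes that separate in this way is not given here. The median log2 fold change over all genes was -0.05.

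**Figure D4:**
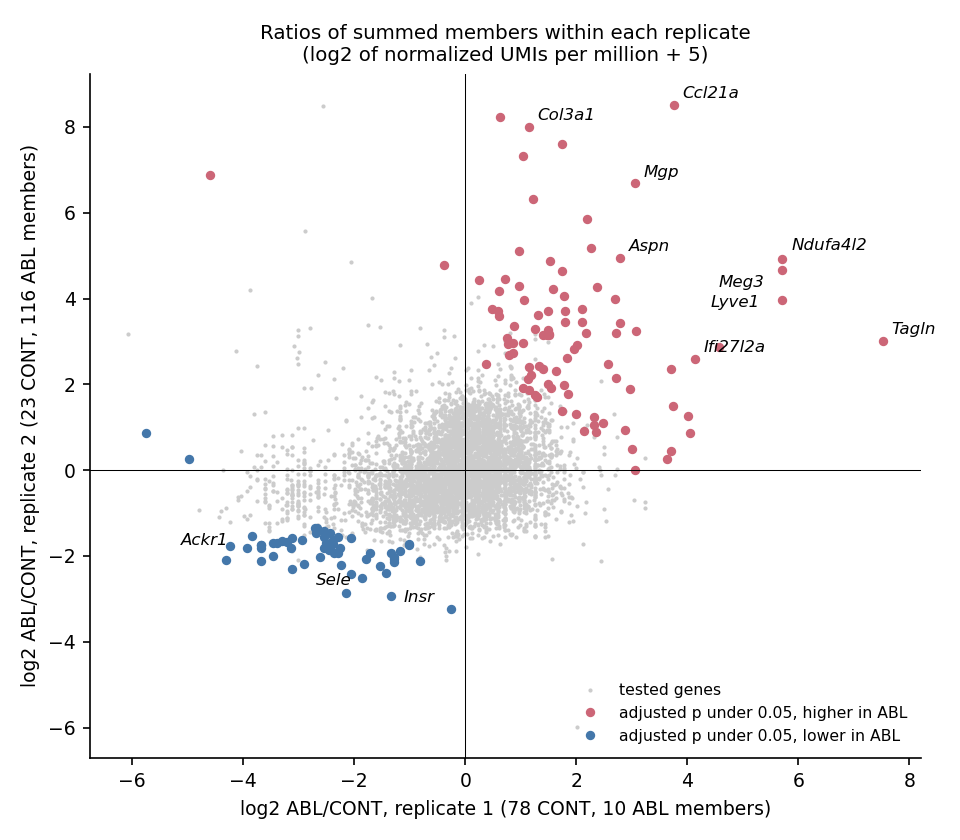
Log2 ratio of ABL to CONT in summed endothelial members within replicate 1 (x axis) and replicate 2 (y axis), from normalized CPM + 5. Each point is a tested gene; red and blue points passed an adjusted p of 0.05 in the fit with the replicate block. Called genes such as *Ackr1* and *Insr* lie in the lower left, while *Tagln*, *Ndufa4l2*, *Meg3* and *Lyve1*, farthest to the right, rest on 1 or 2 of the 10 ABL cells of replicate 1.

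Several sinusoidal genes were lower in ABL members. Of 10 on the list, all were tested, 6 fell, 0 rose and 4 did not pass, and the median log2 fold change of the 10 was -1.96 against -0.05 over all genes. The list is also the one that sets the sinusoidal-like class, whose share had a lower point estimate in ABL, and in a sum over members fewer cells of a type and less RNA per cell cannot be told apart. *Malat1* was lower in ABL members as well (30842 and 33851 against 18089 and 19213 CPM), and its part in these falls was not tested. *Ackr1*, a chemokine-binding receptor of venules, was at 422, 26.7, 333 and 112 CPM in CONT replicate 1, ABL replicate 1, CONT replicate 2 and ABL replicate 2 (log2 fold change -2.29 ± 0.54 SE, adjusted p = 0.00249). Both ABL libraries lay under both CONT libraries, an order given as a description only. *Dnase1l3*, a secreted nuclease, was at 477, 93.5, 698 and 181 CPM (-2.14 ± 0.56, adjusted p = 0.00851), and *Gpm6a*, a membrane glycoprotein gene, at 523, 93.5, 680 and 209 CPM (-2.05 ± 0.56, adjusted p = 0.0138). In both genes the groups did not overlap, which describes the libraries only. *Stab2* fell as well, at 605, 93.5, 945 and 374 CPM (-1.93 ± 0.60, adjusted p = 0.0491). *Vcam1*, which holds leukocytes on the vessel wall, was at 361, 107, 1013 and 239 CPM (-1.99 ± 0.58, adjusted p = 0.0273), without overlap of the groups as a description. *Vcam1* was also lower in ABL of each replicate in free RNA (552, 328, 968 and 229 CPM) and in stroma (1338, 625, 1567 and 1095 CPM). The part of free RNA in the fall of *Vcam1* was not tested. *Selp* was at 225, 26.7, 1328 and 427 CPM (-2.08 ± 0.64, adjusted p = 0.0413), the group ranges overlapped, and 54.6% of its UMIs in CONT replicate 2 lay in 1 cell. The 4 that did not pass were *Stab1* (706, 227, 805 and 497 CPM), *Maf* (188, 174, 431 and 180 CPM), *Flt4* and *Plvap*, whose level was 1029, 1029, 1355 and 1023 CPM. None of the 6 passed without the block.

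*Selp*, which encodes P-selectin, the first tether of rolling leukocytes, lies at chr1:164115264-164150026 (GENCODE M21, GRCm38). The 250 bases upstream of its start are shown because it belongs to the genes that fell together (RefSeq, GRCm38.p6, plus strand, chr1:164115014-164115263). They hold 1 match to AGGAAG or CTTCCT, in capitals, and other forms of the ETS site were not looked for.
Selp: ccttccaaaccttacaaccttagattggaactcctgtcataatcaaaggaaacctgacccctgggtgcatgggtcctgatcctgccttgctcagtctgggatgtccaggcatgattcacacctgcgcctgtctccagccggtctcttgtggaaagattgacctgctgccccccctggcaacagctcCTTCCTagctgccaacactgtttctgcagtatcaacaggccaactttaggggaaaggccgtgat

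The 6 called sinusoidal genes were also lower in ABL than in CONT of replicate 2 among sinusoidal-like members alone. Ccl21a-high cells were left out there, and 22 CONT and 82 ABL cells were compared. *Stab2* was at 962 against 571 CPM, *Gpm6a* at 693 against 299 CPM, *Dnase1l3* at 708 against 275 CPM, *Vcam1* at 1032 against 344 CPM, *Ackr1* at 339 against 174 CPM and *Selp* at 1352 against 635 CPM. In replicate 1 the ABL class had 4 cells and 17347 UMIs, and *Stab2* was at 826 against 404 CPM, *Gpm6a* at 703 against 173 CPM and *Ackr1* at 572 against 115 CPM. All 6 genes had lower point estimates in ABL of both replicates in this class. No test was made of it, since the class was cut from these genes, and in ABL replicate 1 the values rest on 2 to 7 UMIs each. The 6 genes were picked for their fall in all members, which are largely the same cells. Their order here was thus nearly set in advance and is no support for a fall within the class. The 4 genes of the list that did not pass are not given here.

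**Figure D5:**
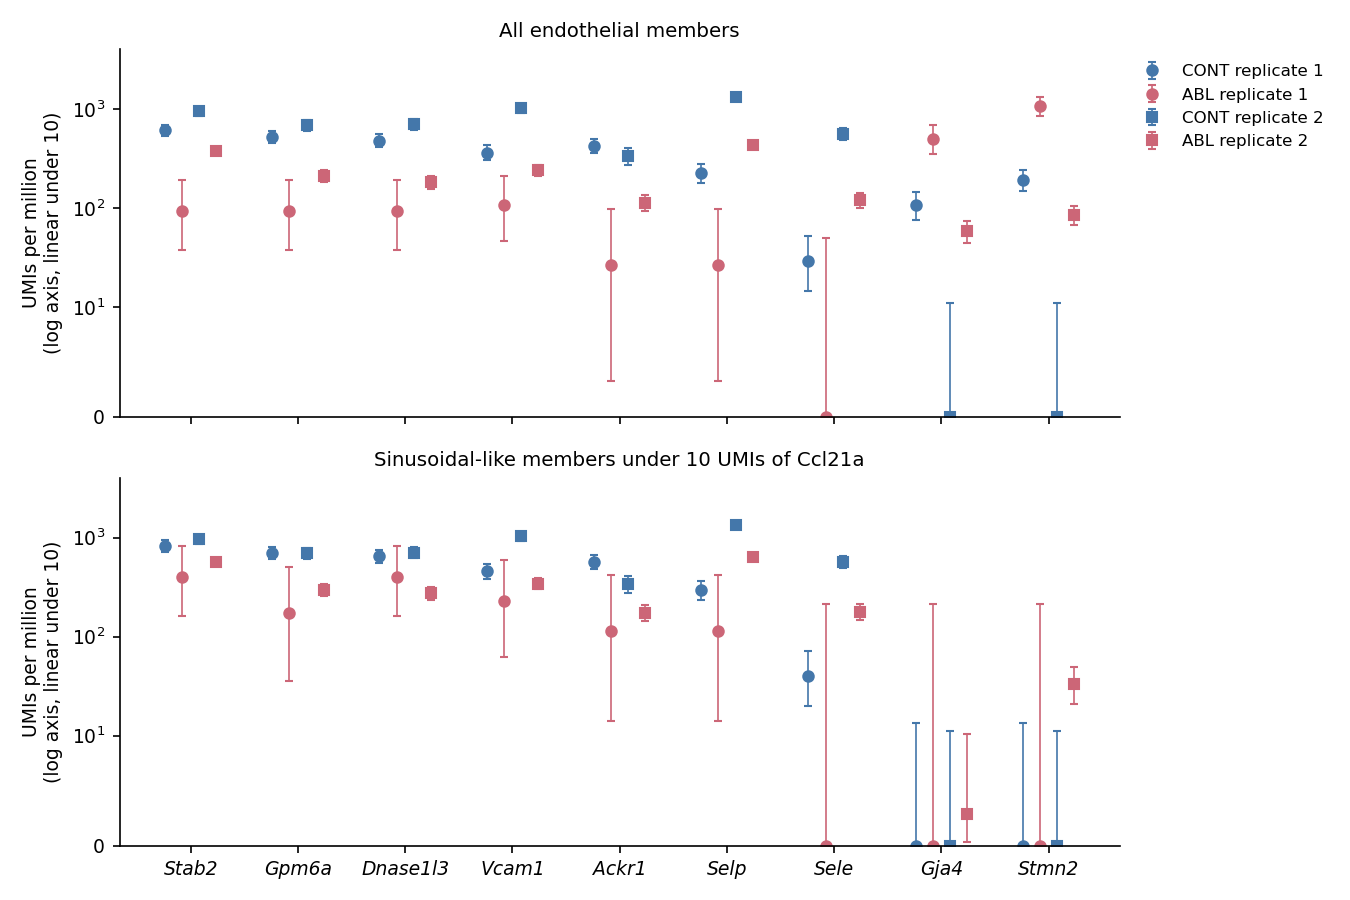
Levels of 7 sinusoidal or adhesion genes and 2 arterial genes in all endothelial members (top) and in sinusoidal-like members with under 10 UMIs of *Ccl21a* (bottom), in CPM on an axis that is logarithmic above 10 and linear below. Points are libraries and bars exact 95% Poisson intervals; *Stab2*, *Gpm6a*, *Dnase1l3* and *Vcam1* are lower in ABL than in CONT of the same replicate in both panels, while in the bottom panel *Gja4* and *Stmn2* are at 0 in all libraries but ABL replicate 2.

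Adhesion and inflammatory genes overlapped with that list. Of 12 tested, 5 fell and 0 rose (median log2 fold change -0.97): *Ackr1*, *Vcam1* and *Selp* above, *Sele* and *Cxcl10*. *Sele*, which encodes E-selectin, was at 29.2, 0, 558 and 120 CPM (-2.35 ± 0.62, adjusted p = 0.0108). It was far higher in replicate 2 than in replicate 1, so the groups overlapped, and without CONT replicate 2 (and without the block) its log2 fold change turned to 1.35. *Cxcl10*, an interferon-induced chemokine, was at 79.6, 0, 345 and 98.1 CPM, with all 116 UMIs of CONT replicate 2 in 1 cell and 94.3% of those of ABL replicate 2 in 1 cell. *Icam1* did not pass, at 485, 160, 351 and 273 CPM.

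Some arterial genes were higher in ABL members, on few cells. Of 12 on the list 8 were tested, 3 rose and 0 fell, with a median log2 fold change of 1.10. *Stmn2*, which encodes a microtubule regulator, was at 191, 1069, 0 and 84.1 CPM (3.09 ± 0.59, adjusted p = 3.64e-05). *Gja4*, a gap junction gene of arterial endothelium, was at 106, 494, 0 and 57.9 CPM (2.73 ± 0.54, adjusted p = 9.16e-05). Both were higher in ABL of each replicate, yet ABL replicate 2 lay under CONT replicate 1 for both. In ABL replicate 1, 77.5% of the *Stmn2* and 73.0% of the *Gja4* UMIs lay in 1 cell. *Igfbp3*, a carrier of insulin-like growth factors, was at 92.8, 1336, 190 and 262 CPM (2.06 ± 0.61, adjusted p = 0.0284), with 91.0% of its UMIs in ABL replicate 1 in 1 cell. *Ly6a* was at 515, 1563, 146 and 315 CPM and did not pass (adjusted p = 0.283).

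Basement membrane and sprouting genes rose in part. Of 11 basement membrane genes 3 rose, 0 fell and 8 did not pass (median log2 fold change 0.55). *Sparcl1*, a matricellular protein gene, was at 71.6, 361, 2.97 and 434 CPM (3.77 ± 0.59, adjusted p = 1.70e-07), *Lamb1*, a laminin chain gene, at 10.6, 66.8, 8.91 and 121 CPM, and *Lama4*, the laminin chain of endothelial membranes, at 21.2, 93.5, 29.7 and 113 CPM. In all 3 genes both ABL libraries lay above both CONT libraries, a description given without the share of all tested genes that do so. *Sparcl1* was found in 42 members of ABL replicate 2 but in 3 of ABL replicate 1, where 88.9% of its UMIs lay in 1 cell. In ABL replicate 2, *Lamb1* was found in 45 and *Lama4* in 48 of 116 members, with at most 9.30% of the UMIs in 1 cell, whereas in ABL replicate 1 they rest on 5 and 7 UMIs. The main collagen chains of the membrane did not pass: *Col4a1* was at 480, 762, 1167 and 1675 CPM and *Col4a2* at 263, 468, 594 and 841 CPM, each higher in ABL of both replicates. Of 12 angiogenic tip genes tested, 2 rose (*Lamb1* and *Pgf*) and 0 fell. *Pgf*, placental growth factor, was at 23.9, 53.4, 0 and 155 CPM (3.25 ± 0.63, adjusted p = 7.14e-05) and was found in 25 members of ABL replicate 2. *Apln*, a peptide gene of tip cells that was too low to be tested, was at 0, 0, 2.97 and 83.2 CPM, in 21 members of ABL replicate 2.

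Of the signalling lists, few genes passed. Of 12 genes of the VEGF and angiopoietin pathways 1 rose (*Pgf*) and 0 fell. Of 7 Notch genes tested and 10 genes of BMP and TGF-beta signalling, 0 passed (1 of each list had an unadjusted p under 0.05 in edgeR), and *Notch1* was at 133, 134, 258 and 167 CPM. Of 11 angiocrine genes, factors by which endothelium acts on blood cells, 1 fell and 0 rose. This was *Csf3*, which encodes the granulocyte growth factor, at 101, 13.4, 205 and 47.7 CPM (-2.24 ± 0.52, adjusted p = 0.00217), found in 8, 1, 5 and 8 members. *Kitl*, stem cell factor, was at 69.0, 66.8, 68.3 and 107 CPM and did not pass (0.37 ± 0.49, adjusted p = 0.788). Of 6 genes that respond to blood flow 1 rose, *Cav1*, the coat protein gene of caveolae, at 178, 548, 8.91 and 397 CPM (3.00 ± 0.57, adjusted p = 3.89e-05). *Klf2* was at 1854, 1242, 832 and 1496 CPM and did not pass. Of 9 lipid and scavenger genes 1 rose (*Fabp5*, at 29.2, 93.5, 11.9 and 144 CPM, with 71.4% of the UMIs of ABL replicate 1 in 1 cell) and 1 fell (*Stab2*). In free RNA *Fabp5* was at 56.8, 202, 61.2 and 215 CPM, above the members in each library and higher in ABL of both replicates. The part of free RNA in this rise was not tested. Of 19 pan-endothelial genes tested, 1 rose, *Cd34*, at 106, 387, 92.1 and 247 CPM (1.59 ± 0.50, adjusted p = 0.0491; 58.6% of the UMIs of ABL replicate 1 in 1 cell), and 0 fell. Of 9 interferon and antigen presentation genes 3 rose, among them *Isg15* and *H2-Ab1*. *Isg15*, an antiviral modifier, was at 55.7, 267, 2.97 and 78.5 CPM and *H2-Ab1* at 37.1, 708, 0 and 6.54 CPM with 98.1% of the UMIs of ABL replicate 1 in 1 cell. Of 12 immediate early and stress genes and 5 proliferation genes tested, 0 passed in edgeR (0 and 1 at an unadjusted p under 0.05). *Fos* was at 2292, 1229, 832 and 1855 CPM.

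Genes of other cell types were also called. Of 9 osteoblast and fibroblast genes tested, 4 rose (*Col3a1*, *Spp1*, *Postn* and *Dcn*) and 1 fell (*Bglap*). The genes that rose were also higher in the free RNA of ABL than of CONT in both replicates: *Spp1* at 193, 2951, 396 and 2201 CPM there, *Postn* at 13.4, 166, 35.1 and 324 CPM, and *Dcn* at 267, 386, 395 and 2258 CPM. The part of free RNA in these calls was not tested. *Dcn* was at 103, 0, 0 and 537 CPM, lower in ABL than in CONT of replicate 1 and higher in replicate 2. *Bglap* was at 4334, 80.2, 0 and 3.74 CPM, so its fall came from replicate 1 alone, where almost all CONT UMIs lay in 1 cell. Of 5 lymphatic genes 3 rose (*Ccl21a*, *Lyve1* and *Pdpn*), with a median log2 fold change of 4.31, or 3.92 with *Lyve1* set at its bound. *Pdpn*, which encodes podoplanin, was at 5.30, 66.8, 0 and 44.9 CPM, in 2, 2, 0 and 13 members. Both such members of ABL replicate 1 were Ccl21a-high cells (5 UMIs), and in ABL replicate 2 Ccl21a-high cells held 32 UMIs in 6 cells. In free RNA *Pdpn* was at 2.18, 15.6, 3.84 and 36.5 CPM, higher in ABL of both replicates. Of 4 mural genes tested 2 rose (*Rgs5* and *Tagln*). All UMIs of both in ABL replicate 1 lay in 1 cell, and in ABL replicate 2 *Tagln* was at 57.0 CPM in 6 cells (73.8% in 1) against 2.97 CPM in CONT replicate 2, and *Rgs5* at 3.74 CPM in 2 cells. Of 8 reticular genes 1 fell, *Hp*, at 199, 80.2, 44.6 and 8.41 CPM, with 73.3% of the UMIs of CONT replicate 2 in 1 cell. Of 9 blood genes and 3 sex-linked genes tested 0 passed in edgeR (2 and 1 at an unadjusted p under 0.05), and no megakaryocyte gene was tested.

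By the rule for naming genes, the 10 largest rises among called genes with a mean of at least 50 CPM were *Ndufa4l2*, *Meg3*, *Lyve1*, *Tagln*, *Reln*, *Ccl21a*, *Aspn*, *Col3a1*, *Mgp* and *Ifi27l2a*. The first 3 had no UMI in either CONT library, so their fitted values are not bounded. Against a limit of 3 UMIs per CONT library, *Ndufa4l2*, a mitochondrial gene of hypoxic cells, was at least 30.2-fold higher in ABL replicate 1 (18 UMIs, all in 1 cell) and at least 15.3-fold higher in ABL replicate 2 (146 UMIs in 8 cells). *Meg3*, an imprinted noncoding RNA, was at least 30.2-fold and 12.6-fold higher, also from 1 cell in replicate 1 (120 UMIs in 7 cells in replicate 2). *Lyve1* was at least 30.2-fold and 7.55-fold higher, from 2 and 7 cells. *Tagln* had all 65 UMIs of ABL replicate 1 in the cell with *Rgs5*, and *Reln* and *Ccl21a* lay mostly in the Ccl21a-high cells. *Col3a1*, a fibrillar collagen gene, was at 31.8, 80.2, 0 and 1186 CPM (4.58 ± 0.75, adjusted p = 6.47e-07), in 39 members of ABL replicate 2. In the *Ptprc*+ cells of that library it was at 1224 CPM and in its stroma at 1824 CPM. Its level in free RNA was 200, 855, 545 and 5474 CPM, highest in ABL replicate 2 and there above the level in members, and the part of free RNA in the members' rise was not tested, since the subtraction tried took only 0.815% of the UMIs of that library. *Mgp*, matrix Gla protein, was at 207, 1857, 0 and 474 CPM, with 96.4% of the UMIs of ABL replicate 1 in 1 cell. *Ifi27l2a*, an interferon-induced gene, was at 45.1, 922, 0 and 23.4 CPM, and *Aspn* at 5.30, 66.8, 0 and 138 CPM. In replicate 1, then, each of these rises except *Col3a1* drew most of its ABL UMIs from 1 or 2 cells.

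The 10 largest falls included *Ubd*, *Insr*, *Lipg*, *Ctnnal1*, *8430408G22Rik*, *Sele*, *Sema3a* and *Ackr1*. *Insr*, the insulin receptor gene, was at 167, 66.8, 861 and 110 CPM (-2.46 ± 0.58, adjusted p = 0.00249), with at most 12.1% of the UMIs of a CONT library in 1 cell. It was found in 36, 3, 23 and 53 members. *Ubd*, a ubiquitin-like modifier gene induced by inflammation, was at 464, 40.1, 597 and 148 CPM (-2.52 ± 0.55, adjusted p = 0.000731), and *Lipg*, endothelial lipase, at 103, 26.7, 484 and 82.2 CPM (-2.45 ± 0.58, adjusted p = 0.00249). *Sema3a*, an axon guidance ligand, was at 76.9, 13.4, 517 and 108 CPM. For *Insr*, *Ubd* and *Lipg*, both CONT libraries lay above both ABL libraries, while for *Sema3a* and *Sele* the groups overlapped. These genes were named for the size of their fall, so this order is a description only. In CONT replicate 2, 63.2% of the *Ubd* UMIs lay in 1 cell. In ABL replicate 1 these falls rest on 0 to 5 UMIs per gene.

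Whether the change in ABL differed from that of the *Adipoq*+ stromal cells of the same libraries was tested as the interaction of cell class and condition, with the library as a block (edgeR, 11154 genes). Of these 96 (0.861%) passed, 50 (0.448%) with a more positive and 46 (0.412%) with a more negative effect in members. The interaction uses the same sums of members as the comparison above, so the tests are not independent. With neither block, edgeR called 0 (120 more positive and 113 more negative at an unadjusted p under 0.05). *Ackr1* passed (log2 difference -2.70 ± 0.72, adjusted p = 0.0291), as did *Sparcl1* (3.73 ± 0.61, adjusted p = 1.01e-06) and *Stmn2* (7.09 ± 1.81, adjusted p = 0.0187). In stroma *Ackr1* was at 4.21, 3.71, 0.463 and 0.743 CPM, under its free RNA level in each library. *Sparcl1* was at 7.17, 3.14, 4.24 and 8.54 CPM there, and *Stmn2* at 1.09, 0, 0 and 0 CPM. With so little in stroma, these 3 differences show little beyond the change in members, and that of *Stmn2* is not bounded. *Pgf* had a log2 difference of 3.94 ± 0.66 (adjusted p = 2.47e-06), with stromal levels of 41.8, 23.7, 35.7 and 26.4 CPM. *Stab2* (-0.28 ± 1.52), *Selp* (-2.47 ± 1.05), *Vcam1* (-1.06 ± 0.58), *Gja4* (2.24 ± 1.27), *Isg15* (1.02 ± 0.60) and *Col4a1* (0.84 ± 0.56) did not pass, which with errors of this size does not show that members and stroma changed alike.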

How the data were processed

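Single cells of 4 libraries (CONT and ABL, replicates 1 and 2) were analysed from the matrices the authors deposited, which hold UMI counts per gene and barcode, not normalized. The submitters' processing notes name Cell Ranger, Seurat and mm10, and their versions are not given in the sources used here. The libraries held 44784072, 22889380, 40486876 and 41536563 UMIs (CONT replicate 1, ABL replicate 1, CONT replicate 2, ABL replicate 2). A called cell had at least 500 genes, 2700 UMIs and at most 20% mitochondrial UMIs in replicate 1, and at least 1000 genes, 4000 UMIs and at most 15% in replicate 2. The members and gene lists were chosen with earlier results of these data known.

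Member UMIs were summed per library and tested with edgeR 4.0.16 (R 4.3.3; quasi-likelihood, TMM, filterByExpr, replicate as a block, 1 residual degree of freedom, Benjamini-Hochberg adjustment), with DESeq2 1.42.0 as an alternative. The replicate numbers come from the labels and coincide with the chemistry. Same-numbered libraries deviated together (r = 0.470 across 5098 genes, 2 pairs). The second test was the interaction of cell class and condition with a library block. In each test the text names the 10 largest called rises and falls with a mean of at least 50 CPM, and of each list the called and the most abundant genes. A few genes that this rule names are not reported here. Both fits were tested on simulated data. Scrublet (scanpy 1.11.5) called 96, 6, 2 and 14 doublets, 1 of them a member, and they were kept. It marked under 0.5% of ABL replicate 1 and CONT replicate 2, where it may not have worked. Coordinates are from GENCODE M21 (GRCm38).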

Additional observations from a re-analysis of the deposited data

Results flagged for a closer look

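The ABL effect differed between endothelial members and *Adipoq*+ stromal cells for the following genes, each by edgeR's interaction test with a library block (Benjamini-Hochberg adjusted p under the 0.05 threshold), and values are the log2 effect in members minus that in stroma. The more positive differences were those of *Fgl2* (10.91), *Meg3* (10.25), *Ndufa4l2* (9.31), *Stmn2* (7.09), *Tagln* (6.69), *Ly6d* (6.35), *Stxbp2* (6.05), *Cd74* (5.66), *H2-Aa* (4.86) and *Pgf* (3.94). The more negative ones were those of *Tspan15* (-3.65), *2900026A02Rik* (-3.72), *Gchfr* (-3.75), *Fabp4* (-3.77), *Tspan18* (-3.86), *Igfbp2* (-3.96), *Ltc4s* (-4.18), *Bglap2* (-10.80), *Bglap* (-11.26) and *Bglap3* (-16.26). Values for genes without a UMI in a group depend on the prior count of the fit and are not bounds. *Stmn2* is such a gene, with no UMI in the stroma of either ABL library. *Ly6d* and *Stxbp2* had no UMI in the members of either library of replicate 2, and *H2-Aa* was at 2.97 and 1.87 CPM there (CONT and ABL), so these 3 differences come from replicate 1, where 97.7%, 96.0% and 94.6% of the UMIs of ABL lay in 1 cell. *Fgl2* also had 89.5% of its UMIs in ABL replicate 1 in 1 cell. Almost all of the *Cd74* in ABL replicate 1 lay in the member with 3 of the 7 endothelial genes, and *Bglap* in CONT replicate 1 lay almost wholly in 1 cell. The 3 *Bglap* genes are near-identical copies that could share reads. *Fabp4*, a fatty acid carrier of capillaries and fat cells, was at 6668, 3914, 4557 and 5186 CPM in members (CONT replicate 1, ABL replicate 1, CONT replicate 2, ABL replicate 2) and at 33.8, 30.8, 8.37 and 1012 CPM in stroma. Its difference thus came with a high stromal level in ABL replicate 2. *Tspan18* (50.4, 107, 110 and 121 CPM) and *2900026A02Rik* (50.4, 66.8, 95.1 and 101 CPM) were not lower in ABL members of either replicate. Their stromal levels were 0.935, 11.4, 0.501 and 14.5 CPM, and 1.25, 10.3, 0.270 and 8.54 CPM. In stroma *Gchfr*, *Ltc4s* and *Tspan15* did not pass 3.14 CPM in any library, and *Igfbp2* did not pass 12.3 CPM. A negative difference is thus not always a fall in members.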

How the results depend on the processing

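The counts of called genes in members, 93 higher and 55 lower in ABL, changed with most settings, and the cause was not tested. They were 3 and 0 with no replicate block, 11 and 2 with DESeq2, 55 and 13 with free RNA subtracted, 25 and 1 in members with no *Xist* UMI, and 10 and 0 in stricter members (at least 4 of the 7 genes and no *Adipoq*). With no filter on low counts 74 were higher and 8 lower. Of alternatives chosen after seeing the data, leaving out the Ccl21a-high members gave 84 and 33, and leaving out those, the mural-gene members and the members at 3 of 7 genes gave 0 and 0. These alternatives leave ABL replicate 1 with as few as 3 members. Leaving out each library in turn, with no replicate block and the lone sample assumed to vary like the others, gave 142 higher and 13 lower without CONT replicate 1, 30 and 26 without ABL replicate 1, 25 and 25 without CONT replicate 2, and 29 and 1 without ABL replicate 2. Counts stayed within 1.5 times of the reported ones without TMM, without called doublets, in members with a tdTomato UMI and under both other cell filters. Of the 20 named genes, 3 stayed past the threshold with no replicate block, and *Sele* turned to a log2 fold change of 1.35 without CONT replicate 2. The interaction called 0 and 0 genes with no replicate block and no library block, in place of 50 and 46, and leaving out a replicate there leaves no residual degree of freedom, so no test was made. Under stricter members the share in CONT replicate 1 was 1.70% in place of 2.28%, and *tdTomato* was at 1303 CPM in ABL replicate 1 and 1728 CPM in CONT replicate 2. Depth limits ABL replicate 1 most: with 74851 member UMIs, 3 UMIs amount to 40.1 CPM, against 7.96, 8.91 and 2.80 CPM in CONT replicate 1, CONT replicate 2 and ABL replicate 2. The free RNA taken off was 6.0%, 3.54%, 1.43% and 0.815% of UMIs (CONT replicate 1, ABL replicate 1, CONT replicate 2, ABL replicate 2), set by *Adipoq*, which the rule holds low, whereas blood genes gave estimates of 17.8%, 7.10%, 3.09% and 38.6%, so that setting tests little of what free RNA could add.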
